A study of Mus musculus with 4 samples.

Results

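The 10 genes described here make, trim, carry and display peptides on major histocompatibility complex (MHC) class I molecules, and they were taken as a named list from the 35905 genes quantified in mouse tumour cells. The list holds the heavy chains H2-K1, H2-D1 and H2-T23, the light chain B2m, the peptide transporter subunits Tap1 and Tap2, the loading factor Tapbp, the immunoproteasome subunits Psmb8 and Psmb9, and the class I transactivator Nlrc5. All 10 were found and all 10 passed the filter on low counts, which kept 13718 genes. RNA was measured in LLC cells, a mouse line from a Lewis lung carcinoma, that carried TdTomato and grew for 4 weeks under the skin of the flank of C57BL/6 hosts. TdTomato+ CD45- cells were sorted, so that the cancer cells were kept and leukocytes removed. The PAD4-DN hosts carried Mrp8Cre together with Padi4fl/fl (2 libraries), and the WT hosts carried Padi4fl/fl without the Cre (2 libraries), so both groups had the floxed alleles. Mrp8Cre is a driver active in neutrophils, and Padi4 encodes a histone-modifying enzyme known for its role when neutrophils cast extracellular traps. The genotype is thus that of the host, not of the cancer cells. The sources used here do not say whether the replicates were separate animals, and p-values measure the spread between these libraries, which may be technical.

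Class I molecules show fragments of a cell's own proteins to CD8 T cells. The proteasome cuts proteins into peptides, the TAP1-TAP2 transporter moves them into the endoplasmic reticulum, tapasin (Tapbp) holds the transporter beside an empty heavy chain, and the heavy chain reaches the surface once it has bound a peptide and beta-2 microglobulin (B2m). Interferons raise most of these genes together through factors that include IRF1 and NLRC5, and tumours that escape T cells often express them at a low level.

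The comparison asked whether class I genes of the cancer cells differed when the host's neutrophils lacked Padi4. Every one of the 10 genes had a lower fitted level in PAD4-DN than in WT, with log2 fold changes (PAD4-DN minus WT) between -0.89 for Tap1 and -0.25 for Tap2 and a median of -0.63, against a median of 0.01 over all genes tested. With the quasi-likelihood test of edgeR and Benjamini-Hochberg adjustment, none of the 10 was called at 0.05, and 0% of all genes tested were called. Each of the 10 had an adjusted p of 0.988 by edgeR. DESeq2 called none of the 10 either. A log2 fold change below 0 was found for 48.5% of all genes tested. Only B2m had an unadjusted p under 0.05 among the 10, in a fit that gave such a p with a lower level in PAD4-DN to 1.42% of all genes and with a higher level to 1.23%. In counts scaled to library size (CPM), the PAD4-DN values were both lower than either WT value for 4 of the 10 genes, against 17.4% of all genes tested. These were H2-D1, H2-T23, B2m and Tapbp, and the other 6 genes overlapped between the genotypes. The set depended on the scaling. In TPM, which also scale for length, H2-D1 and Tapbp overlapped, while Tap1 and Nlrc5 did not. WT replicate 2 was the highest library for 10 of the 10 genes, against 22.3% of all genes tested, and PAD4-DN replicate 2 was the lowest for 8, against 29%. In bulk RNA, fewer cells that express a gene and less of its RNA per cell cannot be told apart.

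**Figure D1:**
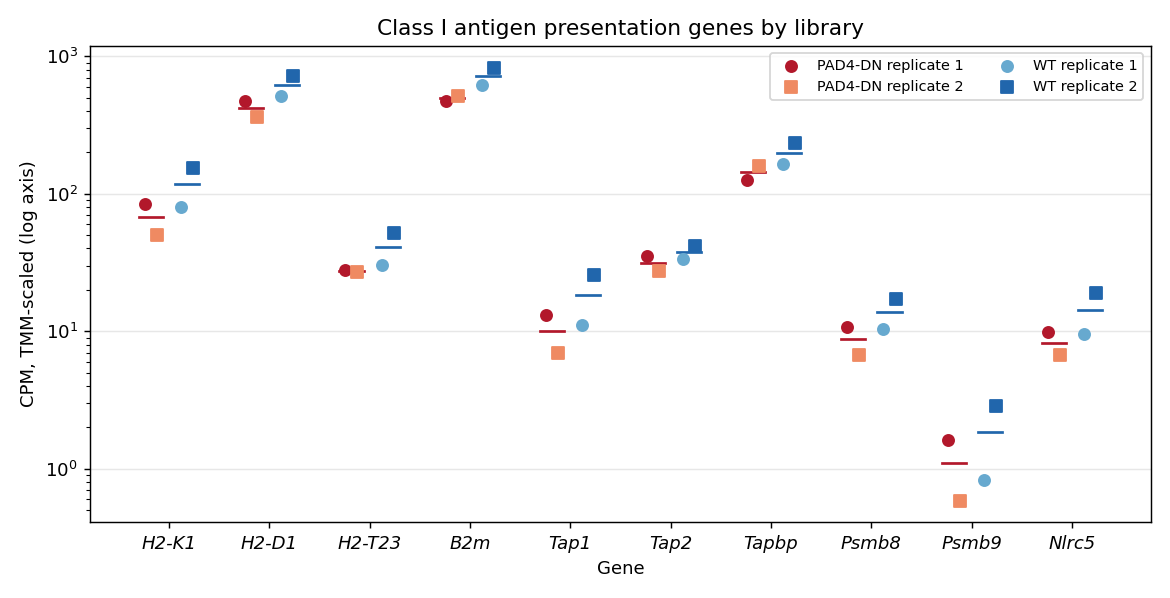
Level of each of the 10 genes in each library, as TMM-scaled CPM on a log axis; circles and squares are replicates 1 and 2, and the short lines are the group means (n = 2 each). The square of WT replicate 2 is the highest point for every gene, and the PAD4-DN and WT points do not overlap for H2-D1, H2-T23, B2m and Tapbp.

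The libraries held 20036322 to 25327974 estimated counts. Padi4, deleted in host neutrophils, had 6 and 0 counts in PAD4-DN and 0 and 2 counts in WT, and is no check of the genotype in cells sorted from a line. The mesenchymal gene Vim (3198 to 3809 CPM, counts per 1000000) and the keratins Krt8 (162 to 217 CPM) and Krt18 (158 to 210 CPM) were expressed in each library, while the epithelial markers Epcam and Cdh1 had at most 7 counts in any library. Ptprc, which encodes the CD45 used to gate leukocytes out, was at 5.42 and 0.713 CPM in PAD4-DN and 2.20 and 1.71 CPM in WT. Replicates of a genotype differed widely in some fibroblast markers and not in others. The collagen gene Col1a2 was at 467 and 3.94 CPM in PAD4-DN and at 0.879 and 404 CPM in WT, replicate 1 before replicate 2, and Postn, a matrix protein of activated fibroblasts, was at 62.8 and 1.72 CPM in PAD4-DN and 0.220 and 129 CPM in WT. The matrix proteoglycan Dcn, on the same list, was at 981 and 1045 CPM in PAD4-DN and 981 and 770.0 CPM in WT.

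H2-D1 and H2-K1 are the classical heavy chains of the H-2b haplotype, which present peptides to CD8 T cells. H2-D1 had 476 and 360 CPM in PAD4-DN and 516 and 722 CPM in WT. Both PAD4-DN values were below both WT values, and the first lay close to WT replicate 1. The fitted log2 fold change was -0.57 (SE 0.23, 95% interval -1.14 to 0.01). H2-K1 was at 84.9 and 50.5 CPM in PAD4-DN and at 80.8 and 154 CPM in WT. PAD4-DN replicate 1 was above WT replicate 1 here, so the genotypes overlapped. The log2 fold change of H2-K1 was -0.80 (SE 0.38, 95% interval -1.74 to 0.14).

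H2-T23 encodes Qa-1, a nonclassical heavy chain that shows signal peptides of other class I molecules to inhibitory receptors of natural killer (NK) cells. Its level was 27.9 and 27.0 CPM in PAD4-DN and 30.2 and 52.2 CPM in WT. The PAD4-DN libraries were nearly equal and WT replicate 1 was only slightly above them. Its log2 fold change was -0.59 (SE 0.27, 95% interval -1.25 to 0.08).

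B2m, the light chain shared by all these heavy chains, was at 476 and 517 CPM in PAD4-DN and at 615 and 828 CPM in WT. The groups did not overlap, and B2m had the smallest p of the 10 genes. The log2 fold change was -0.54 (SE 0.19, 95% interval -1.002 to -0.07), with an unadjusted p of 0.0301 and an adjusted p of 0.988 by edgeR. A single B2m transcript is annotated, so no division of reads between isoforms enters its value.

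Among the other listed class I heavy chains, 18 of 21 were matched and 10 were tested. None passed in either direction by edgeR (0 higher and 1 lower at an unadjusted p under 0.05, that of H2-T22), 9 were negative and 1 was positive, and the median log2 fold change was -0.66. H2-T22, a nonclassical chain recognised by some gamma-delta T cells, was at 33.0 and 37.0 CPM in PAD4-DN and 41.6 and 67.5 CPM in WT, without overlap. H2-Q4 was at 18.4 and 11.6 CPM in PAD4-DN and at 15.3 and 34.9 CPM in WT. H2-Q10 was at 1.81 and 0.713 CPM in PAD4-DN and 1.54 and 3.13 CPM in WT, and H2-T10 at 1.07 and 0.755 CPM in PAD4-DN and 0.967 and 2.22 CPM in WT. Of the 10 tested chains, 2 had both PAD4-DN libraries below both WT libraries and 1 had both above, near the 17.4% and 15.4% of all genes tested. WT replicate 2 was again the highest library for 9 of the 10 tested chains. These genes are close copies of one another and of the classical chains, so the division of reads among them is uncertain, most of all for the low ones.

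The proximal promoters of the heavy chains and B2m are shown because class I genes are known to be controlled together through shared elements there. RefSeq promoters on GRCm38.p6 (250 bases before each annotated start) were matched for 8 of the 10 genes, at 9 starts, and not for Tap2 and Nlrc5. Capitals mark matches on either strand to a kappaB motif (GGG, any 2 bases, TT, any base, CC, bound by NF-kB factors), the core bound by interferon regulatory factors (AANNGAAA), the TGACG core of sites bound by CREB and ATF factors, and the CCAAT box bound by NF-Y. The stretches lie at chr17:34000334-34000462 on the minus strand for H2-K1, chr17:35262919-35263049 on the plus strand for H2-D1, chr2:122147546-122147642 on the plus strand for B2m, and chr17:36032745-36032829 on the minus strand for H2-T23, and each is written 5′ to 3′ on the strand of its gene.
H2-K1: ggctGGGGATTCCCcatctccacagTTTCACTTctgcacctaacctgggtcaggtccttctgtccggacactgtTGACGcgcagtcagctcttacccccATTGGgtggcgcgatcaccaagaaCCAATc
H2-D1: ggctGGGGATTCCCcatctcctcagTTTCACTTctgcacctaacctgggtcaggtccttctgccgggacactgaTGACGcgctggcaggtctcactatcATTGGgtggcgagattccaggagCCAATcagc
B2m: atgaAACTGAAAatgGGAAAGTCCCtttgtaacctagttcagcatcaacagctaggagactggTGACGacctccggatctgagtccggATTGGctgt
H2-T23: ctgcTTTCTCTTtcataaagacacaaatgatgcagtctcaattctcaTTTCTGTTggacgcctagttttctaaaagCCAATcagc

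A kappaB match was found in the promoters of H2-K1, H2-D1 and B2m, and in 4.11% of all 32851 promoter windows of the same length. The interferon regulatory factor core was in these 3 and in H2-T23, and in 21.3% of all windows. TGACG was in 5 of the 8 matched genes (17.8% of all windows) and CCAAT in 7 (33.8% of all windows). The windows of Tap1 and Psmb9 overlap, and the same TGACG and the same CCAAT were counted for both genes. In H2-K1, H2-D1 and B2m the TGACG was followed by 20 bases and then by ATTGG, which is CCAAT read on the other strand. That arrangement, searched for after these sequences had been read, occurred in 30 of all windows, or 0.0913%, and among the other heavy chain genes listed it occurred in 1, H2-M3. From the kappaB match to the end of the ATTGG, 100 bases in each gene, H2-K1 and H2-D1 shared 89 bases. H2-M3, which holds the same arrangement, was at 5.95 and 5.83 CPM in PAD4-DN and at 6.51 and 6.98 CPM in WT. These matches describe letters and say nothing of binding in these cells.

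**Figure D2:**
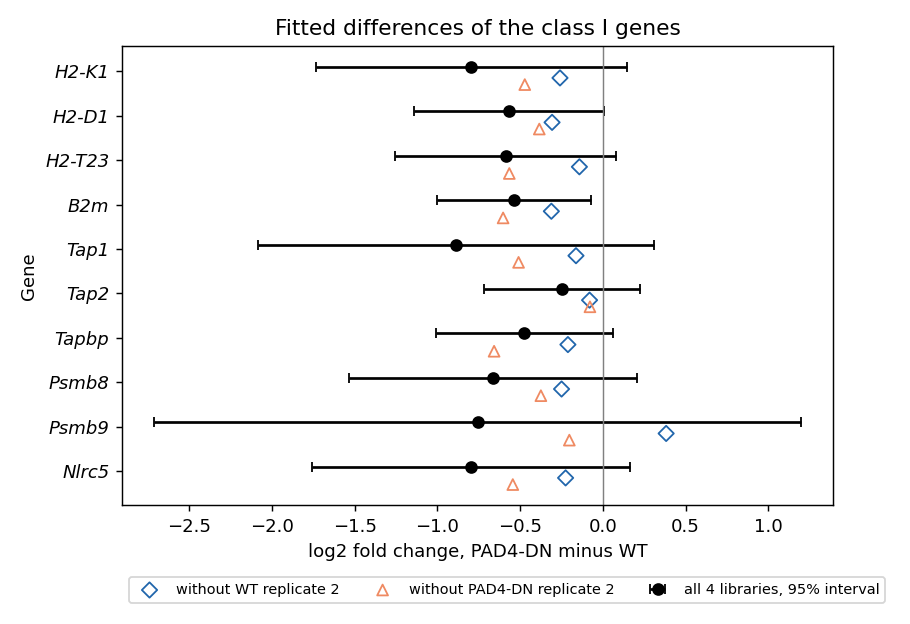
Fitted log2 fold change of each gene, PAD4-DN minus WT, with its 95% interval from edgeR (black), and the same fold change refitted without WT replicate 2 (diamonds) or without PAD4-DN replicate 2 (triangles). The interval includes 0 for 9 of the 10 genes, B2m being the exception, and the diamonds lie nearer to 0 than the black points for all genes shown, on the other side of 0 for Psmb9.

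Tap1 and Tap2 form the pump that carries peptides into the endoplasmic reticulum, and Tapbp bridges the pump and the heavy chain. Tap1 was at 13.0 and 7.0 CPM in PAD4-DN and at 11.2 and 25.8 CPM in WT. WT replicate 2 stood well above the other libraries, and PAD4-DN replicate 1 was above WT replicate 1. The log2 fold change of Tap1 was -0.89 (SE 0.48, 95% interval -2.09 to 0.31). Tap2 was at 35.6 and 27.5 CPM in PAD4-DN and at 33.3 and 41.6 CPM in WT. It varied the least of the 10 genes between the WT libraries, 1.25-fold against 2.31-fold for Tap1, and had a log2 fold change of -0.25 (SE 0.19, 95% interval -0.72 to 0.23). Tapbp was at 127 and 160 CPM in PAD4-DN and at 166 and 233 CPM in WT. The groups did not overlap, although PAD4-DN replicate 2 was close to WT replicate 1, and the log2 fold change was -0.47 (SE 0.21, 95% interval -1.01 to 0.06).

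Psmb8 and Psmb9 are catalytic subunits that replace Psmb5 and Psmb6 when interferon turns the standard proteasome into the immunoproteasome, which favours peptides that fit class I grooves. Psmb10, outside the 10 genes, replaces Psmb7 in the same way. Psmb8 was at 10.7 and 6.75 CPM in PAD4-DN and at 10.3 and 17.3 CPM in WT. PAD4-DN replicate 1 and WT replicate 1 were nearly equal, and the log2 fold change was -0.67 (SE 0.35, 95% interval -1.54 to 0.20). Psmb9 was the scarcest of the 10 genes, with 33 and 14 counts in PAD4-DN and 19 and 72 counts in WT, or 1.61 and 0.587 CPM in PAD4-DN and 0.835 and 2.86 CPM in WT. The groups overlapped, and the interval of its log2 fold change of -0.76 ran from -2.71 to 1.196. Psmb10 was at 12.3 and 9.43 CPM in PAD4-DN and at 12.0 and 21.5 CPM in WT.

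Tap1 and Psmb9 are transcribed away from each other from starts with 225 bases between them, at chr17:34187331-34187555 on GRCm38.p6 (RefSeq). It is shown here on the strand of Tap1 because it is the upstream sequence of both a transporter and a proteasome subunit gene. Capitals mark CCAAT and TGACG, with no kappaB match or interferon regulatory factor core in it.
Tap1-Psmb9: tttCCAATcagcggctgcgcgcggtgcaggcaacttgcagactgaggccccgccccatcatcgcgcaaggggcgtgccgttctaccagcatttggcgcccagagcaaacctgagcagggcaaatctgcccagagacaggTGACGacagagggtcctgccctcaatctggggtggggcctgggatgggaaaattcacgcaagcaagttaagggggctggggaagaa

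Both genes had their highest level in WT replicate 2 and their lowest in PAD4-DN replicate 2, as did 8 of the 10 genes, these included. From WT replicate 1 to WT replicate 2 the ratio was 2.31 for Tap1 and 3.42 for Psmb9, which were the widest ratios of the 10 genes. The Psmb9 ratio rests on only 19 and 72 counts, and a role of the shared sequence was not tested. Psmb8 and Tap2, their neighbours in the MHC on chromosome 17, differed by 1.67-fold and 1.25-fold between the same libraries.

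Set against the subunit it replaces, each immunoproteasome subunit was the minor one. In TPM, transcripts per 1000000 and so a level scaled for length, Psmb8 was at 26.0% and 17.7% of Psmb5 in PAD4-DN and at 21.1% and 40.6% in WT. Psmb10 was at 17.3% and 9.9999% of Psmb7 in PAD4-DN and at 15.2% and 23.9% in WT. Psmb9 was only at 1.99% and 0.849% of Psmb6 in PAD4-DN and at 0.666% and 2.51% in WT. WT replicate 2 had the highest share and the genotypes overlapped for each of the 3 pairs. The exact permutation test, two-sided, gave p = 0.667 for Psmb8 to Psmb5, 0.667 for Psmb10 to Psmb7 and 1 for Psmb9 to Psmb6, where 2 libraries against 2 cannot go below 0.3333. Adjusted over the 6 ratios computed, these and the 3 ratios of heavy chains to B2m, every p was 1. The standard subunits themselves were closer together, with Psmb5 at 33.8 and 32.5 CPM in PAD4-DN and 37.9 and 37.0 CPM in WT, Psmb6 at 52.6 and 51.6 CPM in PAD4-DN and 63.1 and 58.3 CPM in WT, and Psmb7 at 89.5 and 107 CPM in PAD4-DN and 107 and 108 CPM in WT. The difference for Psmb9 to Psmb6 was 0.01 on the log2 scale, and it was -0.44 when estimated counts were used and -0.53 when only protein-coding transcripts were summed. Over protein-coding transcripts alone the Psmb8 to Psmb5 ratio was also lower. As a fraction it was 0.158 and 0.119 in PAD4-DN and 0.118 and 0.247 in WT. For Psmb10 to Psmb7 the fraction was 0.0999 and 0.0628 in PAD4-DN and 0.0743 and 0.145 in WT.

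**Figure D3:**
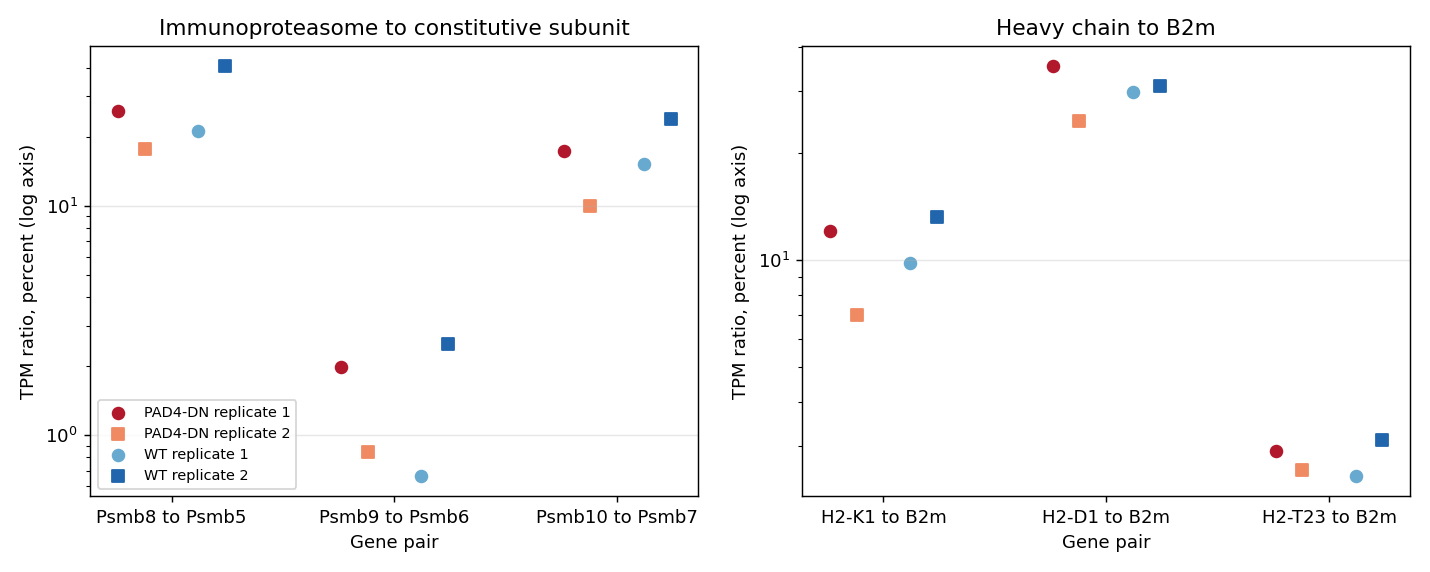
TPM of each immunoproteasome subunit as a percent of the standard subunit it replaces (left) and of each heavy chain as a percent of B2m (right), per library on log axes; circles and squares are replicates 1 and 2. The PAD4-DN and WT points overlap for each of the 6 ratios, and WT replicate 2 is the highest for the 3 proteasome pairs.

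The ratios of heavy chains to B2m spanned less between libraries. H2-D1 TPM was 35.2% and 24.7% of B2m TPM in PAD4-DN and 29.8% and 31.1% in WT. For H2-K1 the ratio was 12.1% and 7.0% in PAD4-DN and 9.83% and 13.2% in WT, and for H2-T23 it was 2.91% and 2.58% in PAD4-DN and 2.47% and 3.12% in WT. The log2 differences were -0.05 for H2-D1, -0.31 for H2-K1 and -0.02 for H2-T23, with exact permutation p = 1, 0.667 and 1 (two-sided), and each turned positive without PAD4-DN replicate 2 (0.21, 0.09 and 0.07). Over protein-coding transcripts alone the H2-K1 to B2m ratio was lower. As a fraction it was 0.0708 and 0.0371 in PAD4-DN and 0.0524 and 0.0701 in WT. PAD4-DN replicate 1 and WT replicate 2 were then nearly equal.

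Nlrc5 encodes the transactivator that acts on class I, B2m, Tap1 and Psmb9 promoters. It was at 9.86 and 6.66 CPM in PAD4-DN and at 9.63 and 19.0 CPM in WT. WT replicate 2 was again alone at the top, and PAD4-DN replicate 1 and WT replicate 1 were nearly equal. Its log2 fold change was -0.80 (SE 0.39, 95% interval -1.76 to 0.17).

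Of the 28 listed regulators of interferon signalling and class I transcription, all 28 were tested and 0 passed in either direction by edgeR, with 0 at an unadjusted p under 0.05. Of these, 17 were negative and 11 positive, with a median log2 fold change of -0.06. Both PAD4-DN libraries were below both WT libraries for 5 of the 28 and above for 3, near the 17.4% and 15.4% of all genes tested. Stat2, a transcription factor activated by the type I interferon receptor, was at 22.9 and 19.3 CPM in PAD4-DN and 20.1 and 54.1 CPM in WT. Irf1, which drives class I genes downstream of interferon-gamma, was at 75.8 and 38.4 CPM in PAD4-DN and at 44.3 and 73.2 CPM in WT. Irf1 thus had nearly the same level in PAD4-DN replicate 1 as in WT replicate 2. Rfx5, a subunit of the complex that recruits NLRC5 to class I promoters, was at 15.03 and 19.0 CPM in PAD4-DN and at 20.7 and 26.4 CPM in WT, without overlap. Irf2 was at 28.8 and 27.8 CPM in PAD4-DN and 33.2 and 33.1 CPM in WT, and the NF-kB subunit gene Rela at 69.1 and 59.9 CPM in PAD4-DN and 84.0 and 70.9 CPM in WT. Creb1, whose product binds TGACG sites, was at 76.8 and 78.7 CPM in PAD4-DN and 62.7 and 71.9 CPM in WT.

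Transcripts of the interferons themselves were at most 3 counts a library. The 9 listed interferon genes together had 2 and 0 counts in PAD4-DN and 3 and 0 counts in WT, and Ifng had 0 counts in each library, where a count of 0 allows up to 0.146 and 0.126 CPM in PAD4-DN and 0.132 and 0.119 CPM in WT for counting error only.

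The other peptide processing and loading factors had a median nearer to 0. Of 18 listed, all 18 were tested and 0 passed in either direction by edgeR, with 0 at an unadjusted p under 0.05 and a median log2 fold change of -0.15. Both PAD4-DN libraries were below both WT libraries for 6 of the 18 and above for 2, against 17.4% and 15.4% of all genes tested. Psme1 and Psme2 form the interferon-inducible activator that caps the proteasome. Psme1 was at 82.1 and 74.7 CPM in PAD4-DN and 89.1 and 111 CPM in WT, and Psme2 at 42.4 and 42.5 CPM in PAD4-DN and 43.0 and 62.8 CPM in WT. Psme3, a nuclear activator of the proteasome, was at 134 and 145 CPM in PAD4-DN and 159 and 163 CPM in WT. Lnpep, an aminopeptidase that trims peptides in endosomes, was at 520 and 685 CPM in PAD4-DN and 476 and 485 CPM in WT.

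The 10 genes spanned a wide range of levels. Per length, B2m was the highest, at 1077 to 1816 TPM over the 4 libraries, followed by H2-D1 at 286 to 564 TPM and H2-K1 at 81.3 to 240 TPM. B2m and H2-D1 did not overlap in any pair of libraries, nor did H2-D1 and H2-K1. H2-K1 overlapped with Tapbp (76.6 to 136 TPM). Then came H2-T23 (29.9 to 56.7 TPM), Psmb8 (12.2 to 31.0 TPM) and Tap2 (15.6 to 23.9 TPM). H2-T23 was above Psmb8 in each library although their ranges touched, and Psmb8 and Tap2 could not be ordered, with means of 19.4 TPM each. Tap1 (5.20 to 14.6 TPM), Nlrc5 (2.83 to 11.6 TPM) and Psmb9 (0.972 to 3.61 TPM) were the lowest. They stood in that order in each library when all transcripts were summed. Thus the transporter and immunoproteasome genes lay far below the light chain that their products serve.

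These gene sums include annotated transcripts that keep an intron. For Tap2 such a transcript of 2561 bases held 67.6% and 63.7% of the estimated counts of the gene in PAD4-DN and 61.6% and 81.0% in WT. The coding Tap2 transcript alone was at 11.4 and 9.91 CPM in PAD4-DN and at 12.7 and 7.82 CPM in WT. It was lowest in WT replicate 2, the library in which the gene sum was highest. The lower fitted level of Tap2 in PAD4-DN thus holds for the gene sum and not for this coding transcript. For Psmb8, retained-intron transcripts held 50.8% and 43.8% of counts in PAD4-DN and 52.3% and 51.1% in WT. H2-K1 held 17.3% and 17.1% of its counts in retained-intron transcripts in PAD4-DN and 14.3% and 18.1% in WT. One of them, only 457 bases long, added 41.0 and 32.8 TPM in PAD4-DN and 54.9 and 93.2 TPM in WT, close to the main coding transcript, which had 61.4 and 38.1 TPM in PAD4-DN and 55.9 and 108 TPM in WT. Summed over protein-coding transcripts alone, H2-K1 was at 43.1 to 127 TPM, with a mean below that of Tapbp; the ranges overlapped, and H2-K1 was below Tapbp in 3 of the 4 libraries and above it in PAD4-DN replicate 1. Tap2 was then at 3.32 to 5.18 TPM and below Tap1 in each library. Nlrc5 (1.08 to 2.78 TPM) was then above Psmb9 (0.418 to 2.80 TPM) in only 2 of the 4 libraries. For Nlrc5 a retained-intron transcript of 1727 bases had 0.003 and 0.795 CPM in PAD4-DN and 0.004 and 2.69 CPM in WT, present in replicate 2 of each genotype. The coding Nlrc5 transcript of 7578 bases had 8.24 and 5.68 CPM in PAD4-DN and 8.42 and 14.98 CPM in WT. These splits are estimates by the quantifier between overlapping transcripts.

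**Figure D4:**
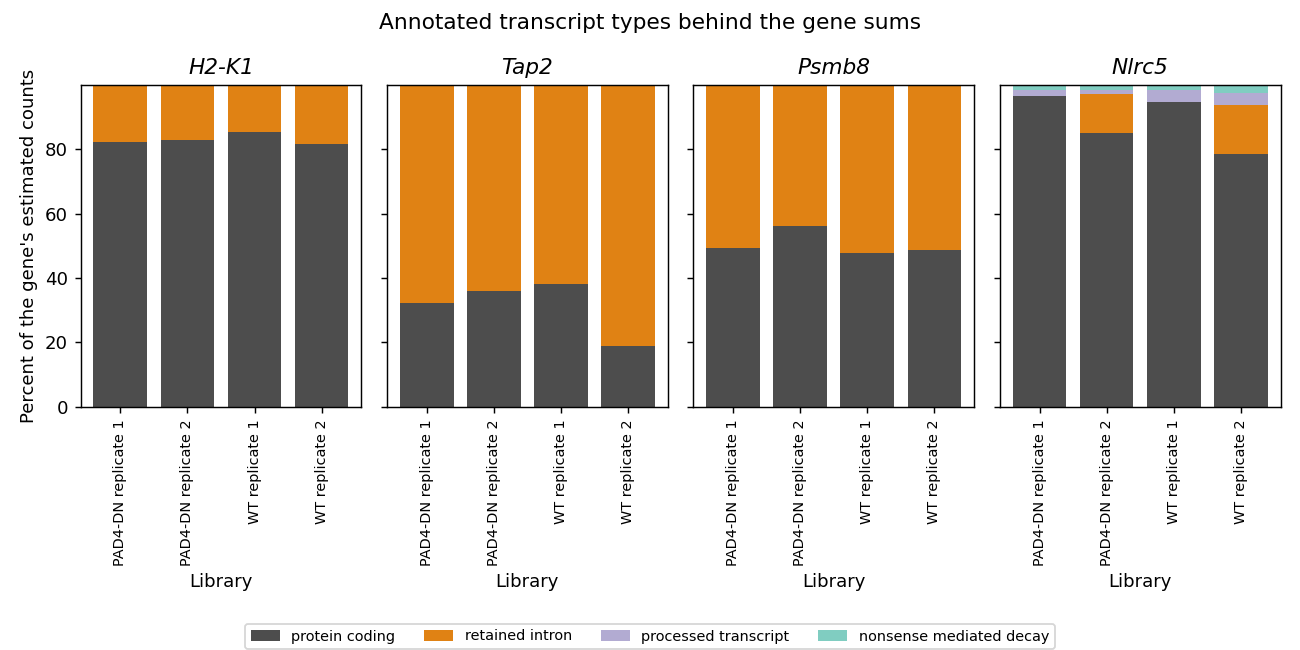
Share of the estimated counts of H2-K1, Tap2, Psmb8 and Nlrc5 by annotated transcript type, in percent, for each library. Retained-intron transcripts hold most Tap2 counts in each library, with 81.0% in WT replicate 2, and about the same share of Psmb8 as its coding transcripts.

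The 10 genes also differed between replicates of one genotype. The median log2 difference of WT replicate 2 from WT replicate 1 was 0.77 over the 10 genes, against 0.02 over all genes tested, and that of PAD4-DN replicate 1 from PAD4-DN replicate 2 was 0.48, against 0.01. Relative to each gene's mean over the 4 libraries, the median of the 10 genes on the log2 scale was -0.04 and -0.57 in PAD4-DN replicates 1 and 2, against -0.06 and 0.68 in WT replicates 1 and 2. PAD4-DN replicate 1 was above WT replicate 1 for 6 of the 10 genes, and PAD4-DN replicate 2 was below WT replicate 1 for all 10. Without WT replicate 2 the median log2 fold change was -0.22, with 9 of the 10 genes still below 0 and Psmb9 at 0.38. It was -0.96 without WT replicate 1, -0.91 without PAD4-DN replicate 1 and -0.49 without PAD4-DN replicate 2, with all 10 below 0 in each. No fit with a library left out called any of the 10 genes. The smallest adjusted p by edgeR among the 10 genes was 0.681 without PAD4-DN replicate 1, 0.741 without PAD4-DN replicate 2, 0.926 without WT replicate 1 and 1.00 without WT replicate 2.

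**Figure D5:**
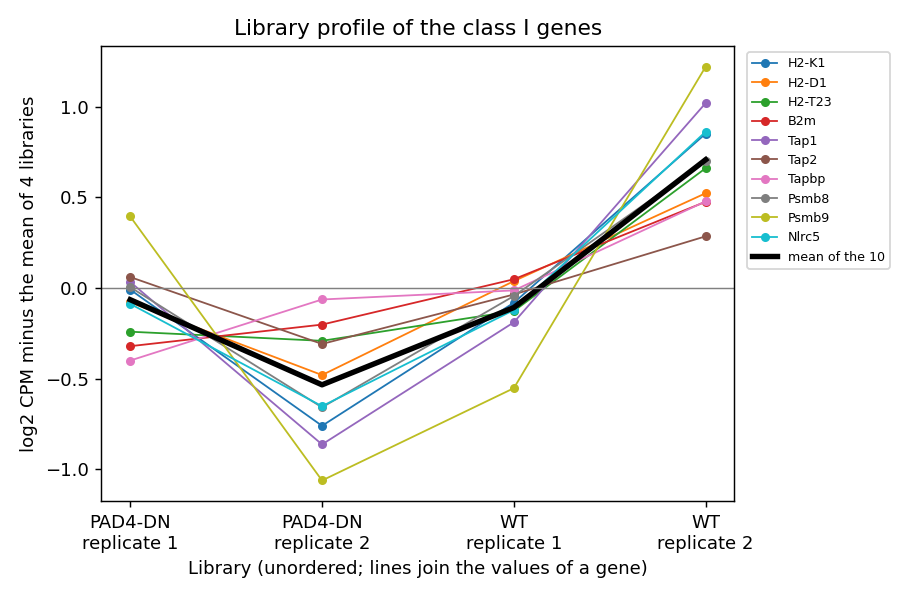
Log2 CPM of each gene minus its mean over the 4 libraries; thin lines join the values of 1 gene and the thick line is the mean of the 10 genes. The mean is highest in WT replicate 2 and lowest in PAD4-DN replicate 2, with PAD4-DN replicate 1 and WT replicate 1 between them and near 0.

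Col1a2, Col1a1, Postn and Thy1, among the 10 fibroblast markers listed, were high in PAD4-DN replicate 1 and WT replicate 2. Thy1 was at 6.00 and 1.76 CPM in PAD4-DN and 1.41 and 14.2 CPM in WT. Col3a1 and Pdgfra were also highest in those libraries, with smaller differences. Col3a1 was at 11641 and 6564 CPM in PAD4-DN and 7405 and 8248 CPM in WT. Dcn, Lum and Fap did not follow them. Dpt did so only within each genotype, at 255 and 180 CPM in PAD4-DN and 135 and 154 CPM in WT. Lum was at 343 and 681 CPM in PAD4-DN and 425 and 442 CPM in WT. Fap was at 29.2 and 29.1 CPM in PAD4-DN and 26.5 and 12.1 CPM in WT. Between the libraries high in Col1a1 and Col1a2, the median log2 difference of PAD4-DN replicate 1 from WT replicate 2 was -0.84 over the 10 genes. Between the libraries low in them, that of PAD4-DN replicate 2 from WT replicate 1 was -0.51. Over all genes tested these medians were -0.01 and -0.01, with 51.2% and 50.9% of genes below 0. All 10 class I genes were below 0 in each, which the library orders given above had already fixed. Each difference sets 1 library against 1, paired after the values were seen, and adds no separate support. The 10 fibroblast markers listed were all detected, and summed to 14777 and 8770 CPM in PAD4-DN and 9265 and 11004 CPM in WT. Col3a1 made up most of each sum, so the sums mainly give the level of that gene. No gene of the marker lists passed by edgeR in either direction. Dpt, higher in PAD4-DN, was the only one with an unadjusted p under 0.05 by edgeR (0.0277). The 9 pan-leukocyte genes listed summed to 42.4 and 6.96 CPM in PAD4-DN and 19.3 and 20.2 CPM in WT, and the 12 macrophage genes to 120 and 22.05 CPM in PAD4-DN and 58.9 and 56.9 CPM in WT. The 10 endothelial genes summed to 72.5 and 39.6 CPM in PAD4-DN and 45.1 and 38.03 CPM in WT. The 14 T and NK cell genes summed to 10.4 and 5.45 CPM in PAD4-DN and 6.95 and 4.20 CPM in WT, with Nkg7, Ncr1, Klrb1c and Gzmb at 0 in 3 of the 4 libraries. The 10 neutrophil genes summed to 20.9 and 10.06 CPM in PAD4-DN and 17.1 and 7.50 CPM in WT, with Elane at 0 in each. MHC class II and antigen-presenting cell genes, 11 in all with Cd209a at 0 in each library, summed to 10.05 and 3.31 CPM in PAD4-DN and 7.39 and 11.9 CPM in WT. This last list was lowest and highest in the same libraries as most class I genes, and the others were not highest in WT replicate 2. The part of these other cells in the class I values was not tested.

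Of 13 listed surface ligands read by NK and T cells outside classical presentation, 11 were matched and 9 were tested; 8 had a positive and 1 a negative log2 fold change and 0 passed by edgeR, with 0 at an unadjusted p under 0.05 and a median log2 fold change of 0.17. Mr1, which presents microbial metabolites, was at 25.4 and 27.3 CPM in PAD4-DN and 21.9 and 19.7 CPM in WT. Clec2d, a ligand of an inhibitory NK receptor, was at 20.4 and 23.3 CPM in PAD4-DN and 16.9 and 17.7 CPM in WT, and Ulbp1, a ligand of NKG2D, at 38.2 and 50.7 CPM in PAD4-DN and 36.8 and 37.1 CPM in WT. Both PAD4-DN values were above both WT values for these 3 of the 9 genes, against 15.4% of all genes tested. Raet1e, another NKG2D ligand, was at 18.1 and 21.6 CPM in PAD4-DN and 18.6 and 16.6 CPM in WT.

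Among 9670 other protein-coding genes with a mean of at least 5 CPM, those whose profile over the 4 libraries came closest to the mean profile of the 10 class I genes were Psmb10, Irf9, Helz2, Loxl4, Ddx58, Tor3a, Agrn, Kank3, Srp54b and Lgals3bp. Likeness was the root mean square distance between log2 CPM values centred over the 4 libraries, and it ran from 0.033 for Psmb10 to 0.129 for Lgals3bp. The 9 class I genes of at least 5 CPM ran from 0.078 for Psmb8 to 0.315 for Tapbp. Psmb10, the third immunoproteasome subunit, was nearer than any of them, and so were Irf9 (0.053), Helz2 (0.053) and Loxl4 (0.061). These were picked as the nearest of 9670 genes, while the class I genes were a given list. Irf9, a subunit of the factor activated by type I interferon, was at 16.2 and 10.6 CPM in PAD4-DN and 14.7 and 25.6 CPM in WT. Ddx58, which encodes the RNA sensor RIG-I, was at 49.0 and 39.9 CPM in PAD4-DN and 47.7 and 93.6 CPM in WT. With 4 libraries many genes can share a profile, and likeness here describes these libraries only.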

How the data were processed

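The authors deposited 1 table of transcripts per library. The submitters' processing notes name kallisto and GRCm39. The kallisto version, its settings and the annotation release were not stated in the sources used here. Oligo-dT captured mRNA was made into strand-specific libraries and read as single ends, per the labels' protocols. The authors deposited estimated counts, which are fractional and unnormalized, and TPM, which add up to 1000000 in each library after division by effective length. Of 117486 transcripts, 116408 were matched to genes by identifier in GENCODE M21; the other 1078 held 0.483% to 0.493% of counts and were left out.

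Counts were summed per gene and rounded. PAD4-DN was compared with WT by edgeR 4.0.16 (R 4.3.3; TMM, filterByExpr, quasi-likelihood test, Benjamini-Hochberg over 13718 genes); ratios used an exact permutation test. CPM use TMM-scaled library sizes. Intervals are at 95%, and a count of 0 allows up to 3 counts; both cover counting error or library spread only, since PCR reads are not independent molecules. Other fits used DESeq2 1.42.0, limma 3.58.1 (voom, and trend on log2(TPM + 1)), other scalings and filters, effective length offsets, replicate blocks and each library left out; fits were tested on simulated data. The 10 genes and all lists were chosen with earlier results of these data known. Besides the 10, the naming rule took the 4 genes of smallest p in a list (6 for partners and regulators), Psmb5, Psmb6, Psmb7, Psmb10, Irf1 and 1 regulator that is not reported here, and the 10 genes of nearest profile. Marker lists are given as sums instead, and the single markers named, H2-M3, Ifng and Padi4 were chosen after their values were seen, as were the motifs, the protein-coding sums and the crossed block.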

Additional observations from a re-analysis of the deposited data

How the results depend on the processing

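Under the 10 alternatives that kept every library, the log2 fold change of each of the 10 class I genes stayed below 0 and none was called. All of these used sums over all transcripts of a gene. The coding Tap2 transcript was not lower in PAD4-DN as a group (11.4 and 9.91 CPM in PAD4-DN, 12.7 and 7.82 CPM in WT). With a library left out, 1 value of 40 turned, that of Psmb9, which ran from -1.65 to 0.38. The median over the 10 genes ran from -0.96 to -0.22 with a library left out. The count of genes without overlap, 4 in CPM, ran from 4 to 10 with a library left out. There, 1 library against 2 gave such an order for 30.3% to 37.2% of all genes. The count was 7 with effective length offsets, against 16.7% of all genes. It was also 4 in TPM, but with Tap1 and Nlrc5 in place of H2-D1 and Tapbp. Over all genes, DESeq2 with its own filtering and edgeR without a low-count filter each called 10 genes, none of them among the 10; left-out libraries gave 0 to 2 (Gm28661 without PAD4-DN replicate 1, and Rpl15-ps3 and Gm10800 without WT replicate 2). Genes at an unadjusted p under 0.05 numbered 364, against 737 without the filter and 861 on log2(TPM + 1) without one, where more genes were tested; with a library left out they ran from 300 to 964.

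The ratios depended on single libraries, as log2 differences. With a library left out, Psmb8 to Psmb5 ran from -0.92 to 0.019, Psmb9 to Psmb6 from -0.95 to 0.97, Psmb10 to Psmb7 from -0.93 to -0.14, H2-K1 to B2m from -0.70 to 0.086, H2-D1 to B2m from -0.30 to 0.21 and H2-T23 to B2m from -0.19 to 0.15. Psmb9 to Psmb6 was -0.44 in estimated counts and -0.53 over protein-coding transcripts. The cause of these turns was not tested.

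Deviations of same-numbered libraries had r = -0.34 over 13718 genes, which gives no sign that the numbers pair them. With 2 libraries a group, this r cannot tell whether same-numbered libraries were handled together. With the replicate number as a block the median was -0.61 with 0 genes called and 309 at an unadjusted p under 0.05; the crossed pairing, added after the data were seen, gave 0 and 412. Precision is limited by 2 libraries a group (median SE 0.31 for the 10 genes).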
